A study of Macaca fascicularis with 6 samples.

Results

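The 8 genes described here belong to the IL-17 axis: the cytokine genes IL17A, IL17F and IL22, the receptor genes IL23R, CCR6, IL17RA and IL17RC, and the chemokine gene CCL20. They were chosen by symbol from the gene list of each library, in which each symbol occurs once among 28623 genes. The data are 10x single-cell RNA profiles of lung cells from 6 cynomolgus monkeys (Macaca fascicularis), all male and 3 to 5 years old. The control group (3 monkeys, replicates 1, 2 and 3) received saline, and the asthma group (3 monkeys, replicates 8, 10 and 11) was sensitized under the skin with Ascaris suum antigen in adjuvant and then challenged with the antigen through the nose. The asthma group is therefore a model of worm-antigen sensitization with adjuvant, each library is 1 animal, and lung tissue from the region of the large airways was cut up and digested with no cell sort before capture. The libraries held 40556102, 33210436 and 32240293 unique molecular identifiers (UMIs, each counting 1 captured RNA molecule) in the control group and 41184329, 41489879 and 29014556 in the asthma group. After quality control 24235 cells were kept, 11441 from control and 12794 from asthma lungs, and any 2 libraries shared between 1 and 11 cell barcodes.

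IL-17A and IL-17F are secreted by type 17 helper T cells and by other, innate-like lymphocytes. IL-23, read through the IL-23 receptor, sustains these cells, and CCR6 guides them towards its ligand CCL20, which is made at epithelial surfaces and by myeloid cells. The receptor for IL-17A and IL-17F pairs IL-17RA with IL-17RC on epithelium, fibroblasts and other responding cells, while IL-22 from the same lymphocytes acts on epithelium through a different receptor. In the lung this pathway is known for recruiting neutrophils and defending the airway surface.

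Cells were grouped by their own markers, with the 8 genes and the related genes kept out of the clustering, and groups are called "like" the type their markers point to. The largest class was T and NK-like (10153 cells), with all 11 of its markers at least 2-fold above the other cells. The others were macrophage-like (3409 cells), stromal-like (2327), monocyte-like (1811), granulocyte-like (1646), epithelial-like (911), B-like (871), MC-like (622), dendritic-like (357), mast-like (93) and plasma-like (27) cells. Of the markers present in the gene list, 4 of 7 were at least 2-fold higher in monocyte-like cells, 7 of 8 in MC-like cells (1 at 0) and 5 of 7 in CD4 T-like cells. The MC-like class takes its short name from the study's mesenchymal cells, but its larger cluster was led by ITLN1, MSLN, PRG4 and UPK3B, genes known from mesothelium. A further 2008 cells entered no class, 1496 in sub-clusters with markers of another class and 512 in sub-clusters with too few markers of their own. Within the T and NK-like class, 1465 cells were CD4 T-like, led by CD40LG, IL7R and CCR6, and 92 were Treg-like, with FOXP3 among the leading genes. The 580 proliferating cells of this class were not shown to be T cells, with NKG7 at 2809 CPM and CD3E at 232 CPM, against 45.4 CPM of CD3E in NK-like and 378 CPM in CD4 T-like cells. Several T sub-clusters stayed unnamed, among them sub-cluster 2 (1402 cells), led by genes such as KLRG1, CXCR6 and DPP4.

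IL17A, the founding cytokine of the family, was found mostly in the cluster of CD4 T-like cells, though CD8A was seen in more of the IL17A cells than CD4 and gamma-delta T cells were not told apart from other T cells here. Over all libraries 163 UMIs lay in 47 cells, of which 135 UMIs (82.8%) were in 35 CD4 T-like cells and 20 UMIs were in 7 cells of T sub-cluster 2. The level in CD4 T-like cells was 25.7 ± 20.1 CPM (UMIs of the gene scaled to 1000000 UMIs of those cells, SD, n = 6 libraries). None of the 2327 stromal-like cells had an IL17A UMI, which allows a share of up to 0.129% for cells with a UMI, though not for cells expressing the gene. In the macrophage-like class 1 of 3409 cells had one. In the T and NK-like class the IL17A level exceeded that of the next class, macrophage-like, in 6 of 6 libraries (4.12 ± 1.98 against 0.0282 ± 0.0690 CPM). The exact sign-flip test over the 6 libraries gave p = 0.031, the smallest it can give, and p = 0.25 after Benjamini-Hochberg adjustment over the 64 neighbouring pairs compared for the 8 genes.

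IL22, whose product acts on barrier epithelium, had a similarly narrow location and a more uneven one among cells. Its 266 UMIs lay in 32 cells, and 7 cells with at least 10 UMIs held 186 of them (69.9%). CD4 T-like cells held 210 UMIs in 21 cells, and 43 of the 46 UMIs in proliferating cells of the T and NK-like class came from 1 cell of control 2. The highest value, 50 UMIs, was in a CD4 T-like cell of control 1. T and NK-like cells exceeded the next class, epithelial-like, in 6 of 6 libraries (6.56 ± 7.75 against 0.0935 CPM, exact sign-flip p = 0.031, adjusted p = 0.25). The macrophage-like class, which should lack the gene, had 2 UMIs in 3409 cells and the stromal-like class had 0 in 2327.

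IL17F, encoded next to IL17A with no protein-coding gene between them in the RefSeq annotation of this species, was spread more widely. Of 70 cells with an IL17F UMI, 60 (85.7%) had exactly 1, against 16 of 47 (34.0%) for IL17A. CD4 T-like cells held 37 of 105 UMIs (35.2%), proliferating cells 18 and macrophage-like cells 11, the last as 1 UMI in each of 11 cells. In control 3 all 25 UMIs were single UMIs in 25 cells, while in asthma 10 a pair of CD4 T-like cells with 12 and 11 UMIs carried 23 of 49. The share of cells with a UMI was 0.384% in the T and NK-like class (39 of 10153 cells) and 0.323% in the macrophage-like class, which should lack IL17F. The macrophage-like cells were deeper, with a median of 18429 UMIs against 3660, and after thinning every cell to 1000 UMIs the shares were 0.0934% ± 0.113 and 0.0115% ± 0.0136 (SD, n = 6). Over classes the IL17F level in T and NK-like cells was above that of the next class, B-like, in 5 of 6 libraries (1.73 ± 2.31 against 0.388 CPM, exact sign-flip p = 0.125, adjusted p = 0.615).

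Among the 44 T and NK-like cells with IL17A, 26 (59.1%) had a UMI of CCR6 and 6 (13.6%) of IL23R, against 6.34% and 1.18% of all T and NK-like cells. Most of the 44 were CD4 T-like, a cluster in which 26.3% of all cells had CCR6 and 3.28% had IL23R. Within that cluster 22 of 35 IL17A cells (62.9%) had CCR6 and 5 (14.3%) had IL23R. The median depth of the 44 cells was 4775 UMIs against 3660 in the whole class, and the part of depth in these shares was not tested. No test was made because cells of 1 library are not replicates. Of all T and NK-like cells 58.2% had a UMI of CD3E, a chain common to T cells, 8.84% of CD4, 58.0% of CD8A, 84.8% of NKG7, a gene of cytotoxic cells, and 54.3% of KLRB1. In the IL17A cells the shares were 81.8% for CD3E, 22.7% for CD4, 45.5% for CD8A and 65.9% for KLRB1. The 24 T and NK-like cells with IL22 had CD3E in 87.5%, CD4 in 37.5%, CD8A in 8.33% and NKG7 in 12.5%. Of the 39 cells with IL17F, 76.9% had NKG7, 61.5% had CD8A and 2.56% had CD4. The IL22 cells lay above the whole class for CD4 and below it for CD8A and NKG7, but 21 of the 24 were CD4 T-like. All CD4 T-like cells had CD4 in 34.4%, CD8A in 18.1% and NKG7 in 24.4%. A few cells carried more than 1 of the cytokine genes. Of the 47 cells with IL17A, 4 (8.51%) also had IL22, against 0.132% of all cells, and 3 (6.38%) had IL17F, against 0.289% of all cells. Within CD4 T-like cells 3 of 35 IL17A cells (8.57%) had IL22 and 3 had IL17F, against 1.43% and 0.819% of that cluster. Of the 70 cells with IL17F, 2 (2.86%) had IL22.

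**Figure D1:**
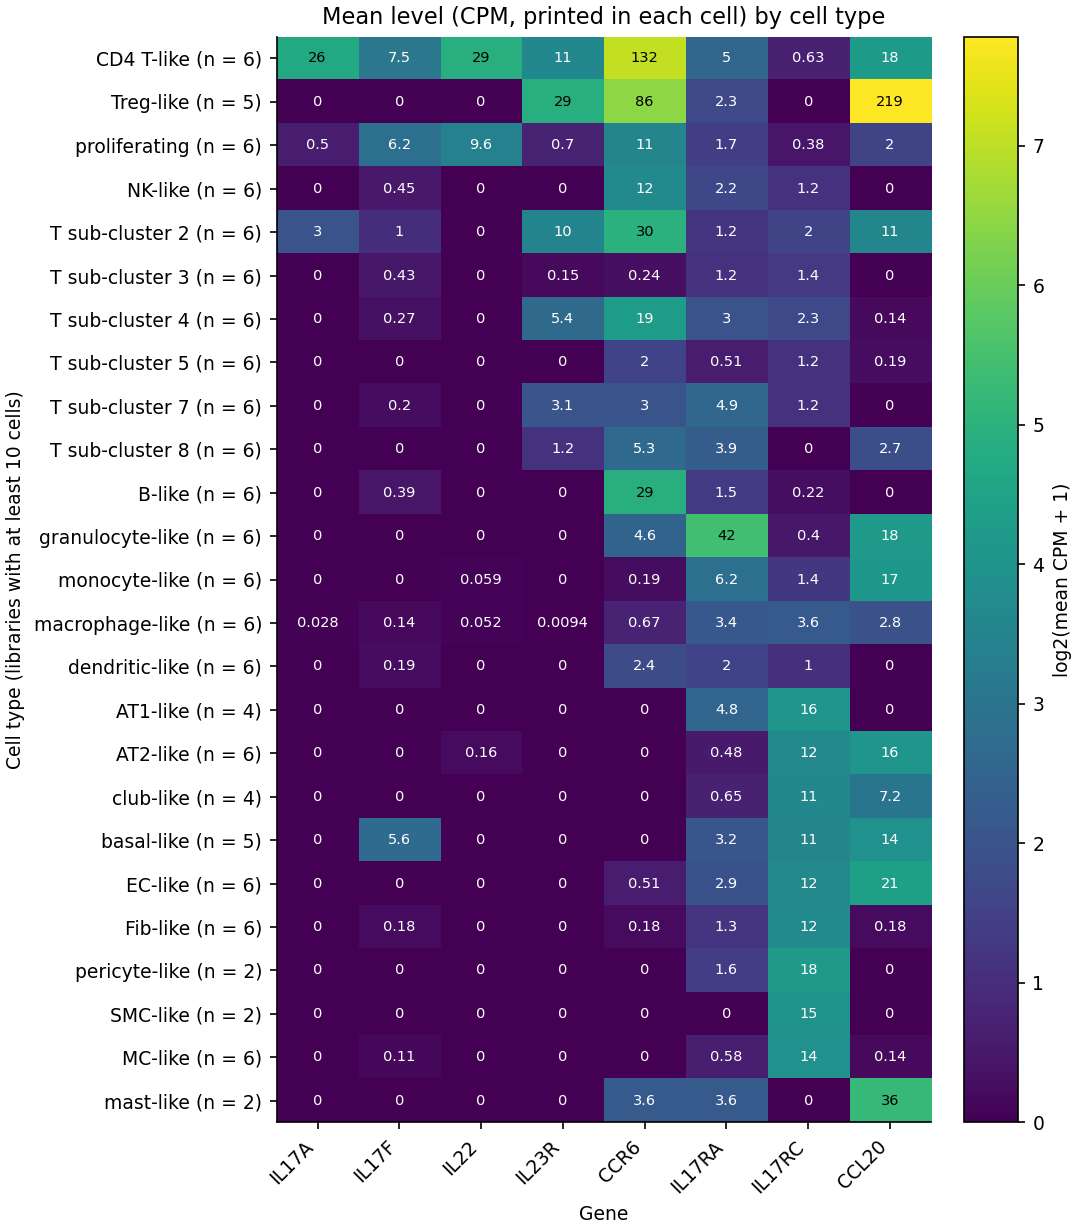
Mean level of the 8 genes (columns) in each cell type (rows), averaged over the libraries with at least 10 cells of the type (n beside each name). The number in each cell is the mean CPM and the colour is log2(mean CPM + 1), so the colours show IL17A mainly in CD4 T-like cells, IL22 in CD4 T-like and proliferating cells, and IL17RC at 10.7 CPM or more in the structural cell types.

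IL23R, the receptor subunit through which IL-23 acts, was likewise confined almost wholly to T and NK-like cells (141 of 147 UMIs, 95.9%). CD4 T-like cells held 60 UMIs, T sub-cluster 2 held 53 and Treg-like cells held 11. The level was 11.3 ± 8.49 CPM in CD4 T-like cells (n = 6) and 28.9 CPM in Treg-like cells (n = 5 libraries with at least 10 such cells). The Treg-like value rests on 8 of 92 cells. T and NK-like cells exceeded macrophage-like cells in 6 of 6 libraries (3.48 ± 0.720 against 0.00939 CPM, exact sign-flip p = 0.031, adjusted p = 0.25). Of the 126 cells with IL23R, 46 (36.5%) also had CCR6 and none had IL17RA.

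CCR6, the receptor that reads CCL20, was the most frequently detected gene of the axis, with 1550 UMIs in 919 cells. CD4 T-like cells held 746 UMIs (48.1%), and 386 of the 1465 cells (26.3%) had at least 1. Levels were 132 ± 35.5 CPM in CD4 T-like cells, 29.3 ± 15.7 CPM in B-like cells and 29.3 ± 7.67 CPM in all T and NK-like cells. B-like and T and NK-like cells did not differ in order beyond their spread, since B-like cells were higher in 2 of 6 libraries and lower in 4 (exact sign-flip p = 1.0). Among B-like cells 86 of 116 UMIs came from 1 sub-cluster of 201 cells at 72.2 CPM, while another of 149 cells had 1 UMI. After thinning to 1000 UMIs, 2.26% ± 0.558 of T and NK-like cells and 0.0860% ± 0.0902 of stromal-like cells, which should lack CCR6, had a UMI (n = 6), against 6.34% and 0.215% before thinning. The median depths of those classes were 3660 and 3359 UMIs.

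IL17RA, the subunit shared by several IL-17 receptors, was highest in granulocyte-like cells. There the level was 42.0 ± 19.5 CPM, against 6.20 ± 1.08 CPM in monocyte-like and 3.43 ± 0.779 CPM in macrophage-like cells (n = 6 each). Granulocyte-like cells were above monocyte-like cells in 6 of 6 libraries, and monocyte-like above macrophage-like cells in 6 of 6 (exact sign-flip p = 0.031 for each, adjusted p = 0.25). From macrophage-like cells downward no neighbouring pair differed beyond its spread, with exact sign-flip p between 0.09375 and 0.90625. Granulocyte-like cells were shallow, with a median of 1005 UMIs, so their high CPM comes from 70 UMIs in 67 of 1646 cells. Thinned to 1000 UMIs, which left out 804 granulocyte-like cells, 4.42% ± 1.30 of them had a UMI, against 0.646% ± 0.0969 of monocyte-like cells. No class was taken as lacking IL17RA.

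IL17RC, the partner of IL17RA in the receptor for IL-17A and IL-17F, was highest in structural cells. Levels were 14.4 ± 4.82 CPM in MC-like cells, 12.6 ± 4.14 in epithelial-like and 11.2 ± 3.72 in stromal-like cells, and these classes did not differ beyond their spread (exact sign-flip p = 0.46875 and 0.375). Stromal-like cells exceeded macrophage-like cells (3.64 ± 0.827 CPM) in 6 of 6 libraries, and macrophage-like exceeded monocyte-like cells in 6 of 6 (exact sign-flip p = 0.031 for each, adjusted p = 0.25). Within these classes the level was 12.3 CPM in fibroblast-like (Fib-like) cells, 11.6 in endothelial-like (EC-like) cells, 11.8 in alveolar type 2-like (AT2-like), 15.5 in alveolar type 1-like, 11.3 in club-like and 10.7 in basal-like cells. B-like and granulocyte-like cells had 1 UMI each in 871 and 1646 cells. The share of cells with a UMI was 15.9% in MC-like and 0.463% in T and NK-like cells, which should largely lack IL17RC, or 1.33% ± 0.569 and 0.113% ± 0.0662 after thinning. The median depths were 9847 and 3660 UMIs.

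The 2 receptor genes thus had different places. Of the UMIs of both genes together, IL17RC made up 96.4% in MC-like, 84.9% in stromal-like and 83.6% in epithelial-like cells, 51.5% in macrophage-like cells, 19.3% in monocyte-like cells and 1.41% in granulocyte-like cells. These shares compare classes and not the 2 genes, whose capture can differ. Only 28 cells had a UMI of both genes, 21 of them macrophage-like, and most cells with either gene had a single UMI of it (94.7% for IL17RA and 93.4% for IL17RC), so that few cells could show both at this depth.

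**Figure D2:**
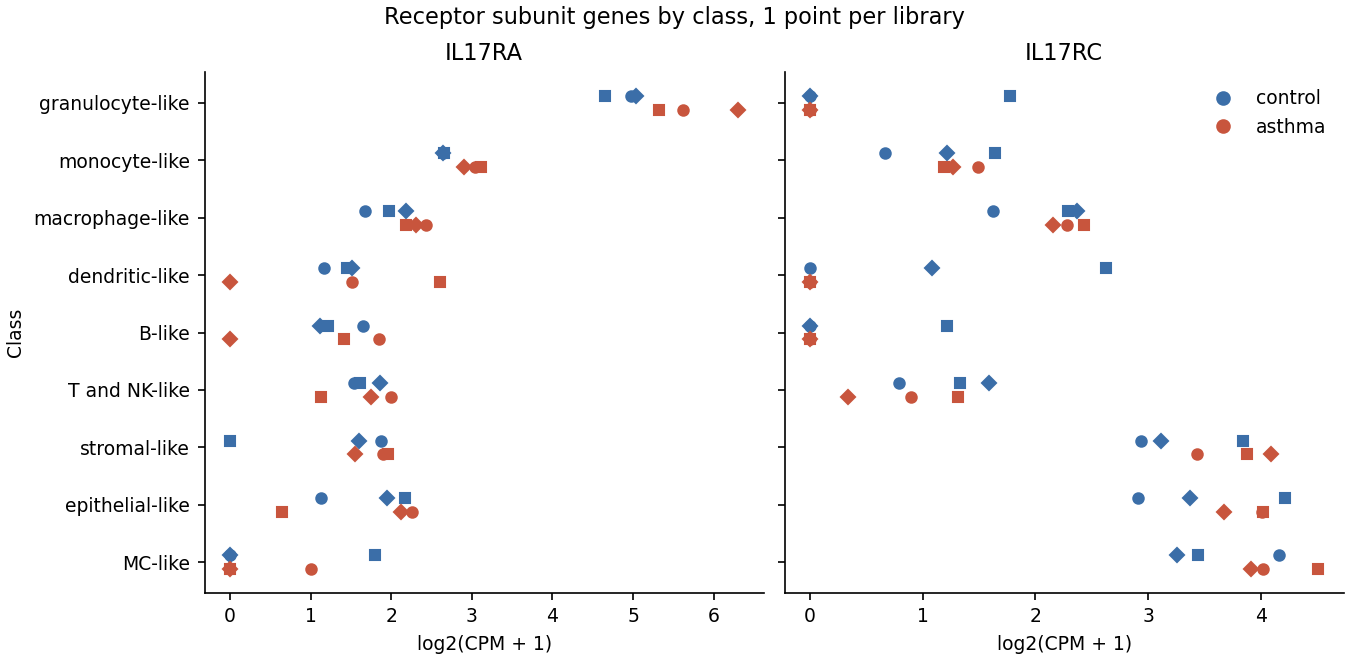
IL17RA (left) and IL17RC (right) by class (rows), as log2(CPM + 1) on the horizontal axis, with 1 point per library (control in blue, asthma in red, circles for control 1 and asthma 8, squares for control 2 and asthma 10, diamonds for control 3 and asthma 11). IL17RA lies farthest right in granulocyte-like cells and IL17RC in stromal-like, epithelial-like and MC-like cells, in every library.

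CCL20, the chemokine ligand of CCR6, was spread over many cell types. Its 955 UMIs lay in 267 cells, of which 24 cells with at least 10 UMIs held 405 (42.4%). Macrophage-like cells held 224 UMIs, monocyte-like cells 155, CD4 T-like cells 97, Treg-like cells 91, EC-like cells 73, AT2-like cells 48 and basal-like cells 40. The mean level was 17.6 ± 19.7 CPM in granulocyte-like, 16.6 ± 13.6 in monocyte-like, 15.1 ± 19.5 in epithelial-like, 8.60 ± 9.94 in stromal-like and 6.29 ± 3.86 in T and NK-like cells. None of these neighbours differed beyond its spread (exact sign-flip p between 0.5625 and 0.875). The granulocyte-like mean rests on 24 UMIs in 13 of 1646 shallow cells, with a median depth of 1005 UMIs. The Treg-like mean of 219 CPM over 5 libraries rests largely on control 3, where 6 of 15 cells held 67 of the 91 UMIs. B-like cells, which should lack CCL20, had none in 871 cells, which allows a share of up to 0.344% for cells with a UMI, though not for cells expressing the gene. In T and NK-like cells, 38 of the 85 cells with CCL20 (44.7%) also carried CCR6, its receptor, and 10 carried IL23R.

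Across 21 cell types the genes whose mean level moved most like each member were found among 12849 genes with at least 50 UMIs, as Pearson's r of log2(CPM + 1). These values describe shared profiles over cell types that come from the same libraries, and a profile at 0 in all but a few types gives a high r easily. For IL17A they were HOXD9 (0.99), SCART1 (0.99) and LGALS13 (0.98). For IL22 they were TRAV41 (0.99), SLC4A10 (0.97) and TRAV22 (0.97), and for IL17F ANKRD52 (0.83), TRAV41 (0.81) and TRAV22 (0.81). TRAV41 and TRAV22 encode T cell receptor alpha segments. For IL23R they were CCR4 (0.99), IL21 (0.98) and CTLA4 (0.97), all genes of helper or regulatory T cells, and for CCR6 SEPTIN1 (0.95), GPR174 (0.91) and CD3G (0.91). For IL17RC they were CDC42BPA (0.97), RBFOX2 (0.97) and PLS3 (0.96), for IL17RA SNORD89 (0.84), UBE2D3 (0.83) and CEP19 (0.83), and for CCL20 IL1RL1 (0.72), ZNF316 (0.70) and TNFRSF10A (0.66). Among the members themselves, the r was 0.88 for IL17A with IL22, 0.65 for IL17A with IL17F, 0.77 for IL23R with CCR6 and -0.36 for IL17RA with IL17RC.

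The comparison of control and asthma lungs asked whether the level of any of these genes differed between the groups. Over all cells of a library, 7 of the 8 genes had enough counts for the fit and none was called different (edgeR quasi-likelihood test, a Benjamini-Hochberg adjusted p below 0.05 with a log2 fold change beyond 0.25 in size), where 0.0839% of the 14306 genes tested were called. At an unadjusted edgeR p under 0.05, 2 of the 7 were found, IL17RC and IL22, where 12.9% of all genes tested were. DESeq2 called none of the 7, where it called 491 genes up and 157 down of 14306. Within classes and named subtypes no member was called either by edgeR or by DESeq2, and 3 of 25 fits had an unadjusted edgeR p under 0.05 (IL22 and IL17A in CD4 T-like cells, CCR6 in B-like cells). That unadjusted limit was passed by 6.51% of genes tested in CD4 T-like and 6.18% in B-like cells. For edgeR calls the background was 0.0% of genes in CD4 T-like, epithelial-like, monocyte-like, macrophage-like, granulocyte-like and all T and NK-like cells. It was 0.0159% in B-like, 0.0186% in MC-like, 0.0188% in proliferating, 0.0163% in AT2-like, 1.59% in stromal-like and 4.96% in EC-like cells. Among T sub-clusters it was 0.0474% in sub-cluster 3 and 0.0166% in sub-cluster 5. The groups also drew on different sub-clusters of some classes. Of monocyte-like cells, the sub-cluster with S100A9 leading and CXCL8 among its top genes held 390 control and 90 asthma cells, the one led by CXCL3 and CXCL8 held 136 and 25, and a further pair held 9 and 582, nearly all of them from asthma 11. Of macrophage-like cells, 1 sub-cluster held 520 control cells, 509 of them from control 1, and 1 asthma cell. Of MC-like cells, 1 sub-cluster of 189 had 147 cells from asthma 8 and another of 67 had 60 from asthma 10. The part of this make-up in the values within these classes was not tested. Sums over all cells cannot separate more cells of a type from more RNA per cell.

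**Figure D3:**
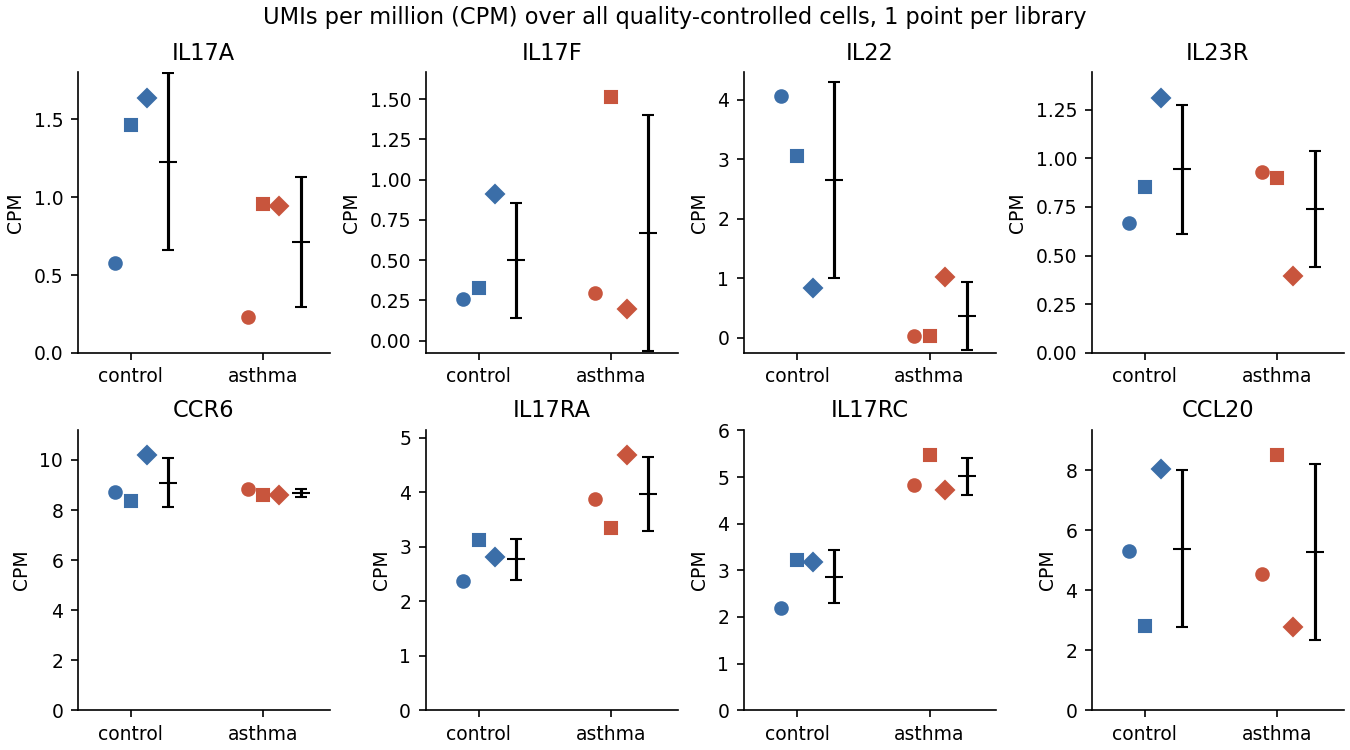
Level of each of the 8 genes in CPM over all quality-controlled cells, with 1 point per library (control in blue, asthma in red, circles for control 1 and asthma 8, squares for control 2 and asthma 10, diamonds for control 3 and asthma 11). Black bars are the group mean and SD (n = 3), and the asthma points lie above the control points for IL17RC (2.20 to 3.21 against 4.73 to 5.47 CPM) and IL17RA (2.37 to 3.13 against 3.34 to 4.69 CPM).

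IL22 had the largest log2 fold change among the 7 genes fitted over all cells. Over all cells it had 140, 75 and 23 UMIs in control 1, 2 and 3, in 15, 6 and 6 cells, and 1, 1 and 26 UMIs in asthma 8, 10 and 11, in 1, 1 and 3 cells. Asthma 8 and 10 were almost without IL22, while asthma 11 overlapped with control 3 in level (1.02 against 0.838 CPM). The log2 fold change of asthma over control was -3.12 (SE 1.25, edgeR adjusted p = 0.367), and -6.36 (adjusted p = 0.142) without asthma 11. In CD4 T-like cells the counts were 135, 31 and 17 UMIs in the control and 1, 1 and 25 in the asthma libraries, and every asthma library lay below every control library (92.8, 35.8 and 25.4 against 1.29, 1.31 and 16.8 CPM), as did 5.99% of genes tested in these cells. The log2 fold change there was -2.80 (SE 0.62, edgeR adjusted p = 0.297). Without the filter on low counts, edgeR called IL22 in CD4 T-like cells (log2 fold change -2.82, adjusted p = 4.37e-17), so the call depends on that filter. In these cells 41 genes were called up and 68 down of 14698 without the filter, against 0 of 6143 with it. Counted as cells rather than UMIs, 2.94%, 2.26% and 1.32% of control and 0.575%, 0.505% and 0.512% of asthma CD4 T-like cells had an IL22 UMI, and the exact permutation test gave p = 0.1, the smallest that 3 against 3 libraries allow. The proliferating cells held 46 IL22 UMIs in control and 0 in asthma libraries, with 99 asthma cells, and their exact permutation p was 0.4.

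IL17A differed less. In CD4 T-like cells 17, 29 and 42 UMIs were counted in the control libraries, in 6, 8 and 9 cells, and 7, 16 and 24 in the asthma libraries, in 2, 5 and 5 cells. The levels overlapped, at 11.7, 33.5 and 62.7 CPM in control 1, 2 and 3 and 9.03, 21.0 and 16.1 CPM in asthma 8, 10 and 11. The log2 fold change was -1.14 (SE 0.47, edgeR adjusted p = 0.709), and it was -0.16 (SE 0.59, adjusted p = 0.983) in all T and NK-like cells, where T sub-cluster 2 of asthma 10 added 15 UMIs. Without the low-count filter edgeR also called IL17A in CD4 T-like cells (log2 fold change -1.15, adjusted p = 0.0355), where 41 genes were called up and 68 down of 14698.

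IL17F had too few counts for the fit. Over all cells it stood at 0.261, 0.325 and 0.911 CPM in the control and 0.298, 1.51 and 0.197 CPM in the asthma libraries. Both groups held 1 high library, control 3 and asthma 10, and the groups overlapped (exact permutation p = 0.9). In CD4 T-like cells 30 of 37 UMIs were from asthma 10, and the asthma mean changed from 13.1 CPM to 0 without that library. In proliferating cells every asthma library was above every control library (2.62 ± 2.73 against 9.80 ± 2.97 CPM, exact permutation p = 0.1), as were 4.92% of the genes fitted in these cells, but the asthma values rest on 3, 2 and 1 UMIs.

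**Figure D4:**
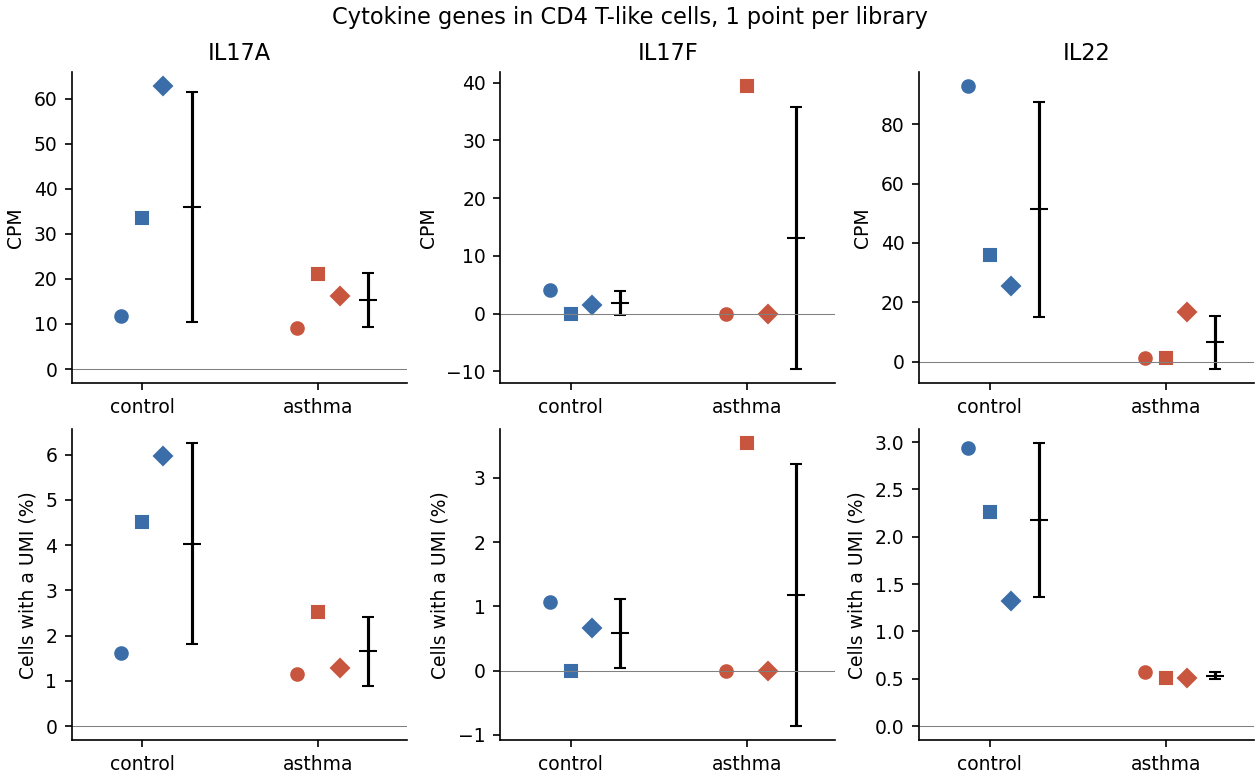
IL17A, IL17F and IL22 in CD4 T-like cells as CPM (top) and as the percentage of cells with at least 1 UMI (bottom), with 1 point per library (control in blue, asthma in red, circles for control 1 and asthma 8, squares for control 2 and asthma 10, diamonds for control 3 and asthma 11) and the group mean and SD in black (n = 3). The IL22 points of the asthma group all lie below those of the control group, and IL17F is high in asthma 10 alone.

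The receptors of type 17 lymphocytes showed no difference that passed the test. IL23R stood at 0.666, 0.854 and 1.31 CPM over all cells of control and 0.928, 0.897 and 0.394 CPM of asthma lungs (log2 fold change -0.46, SE 0.44, edgeR adjusted p = 0.716), and within T and NK-like cells its log2 fold change was 0.02 (SE 0.32, adjusted p = 0.998). CCR6 stood at 8.72, 8.38 and 10.2 CPM in the control and 8.85, 8.59 and 8.59 CPM in the asthma libraries, which overlapped. On the scale normalized by the trimmed mean of M values (TMM) every asthma library was below every control library, as were 9.13% of genes tested, and the log2 fold change was -0.21 (SE 0.14, edgeR adjusted p = 0.584). In CD4 T-like cells the CCR6 log2 fold change was -0.14 (SE 0.22, edgeR adjusted p = 0.945).

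In B-like cells the CCR6 level was higher in the asthma group. TMM-normalized levels were 16.7, 17.9 and 26.0 CPM in control 1, 2 and 3 and 58.8, 28.1 and 31.1 CPM in asthma 8, 10 and 11. The groups did not overlap, as held in this direction for 5.61% of genes tested in B-like cells, and asthma 8 was the highest. The log2 fold change was 1.06 (SE 0.36, edgeR unadjusted p = 0.00999, adjusted p = 0.677). It was 0.50 without asthma 8 (adjusted p = 0.985). Asthma 11 contributed only 30 B-like cells, and the control and asthma groups held 575 and 296 in all. The sub-cluster with 1 CCR6 UMI held 146 control cells, 136 of them from control 1, and 3 asthma cells, while the one at 72.2 CPM held 119 and 82. The part of this make-up in the difference was not tested.

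IL17RC was higher in asthma lungs when all cells were summed. It stood at 2.20, 3.21 and 3.17 CPM in the control and 4.84, 5.47 and 4.73 CPM in the asthma libraries. The groups did not overlap on this or the TMM-normalized scale, where 10.1% of genes had every asthma library above every control library, and the log2 fold change was 0.68 (SE 0.23, edgeR unadjusted p = 0.0233, adjusted p = 0.311). The shares of the classes in which IL17RC was highest moved too. Epithelial-like cells were 3.34%, 1.03% and 3.38% of control and 4.16%, 3.96% and 6.09% of asthma cells, without overlap. MC-like cells were 0.714%, 1.47% and 1.26% of control and 6.43%, 4.31% and 0.743% of asthma cells, and stromal-like cells were 3.48%, 3.97% and 9.84% of control and 9.16%, 7.40% and 23.4% of asthma cells, and for these classes the groups overlapped. The MC-like shares leave out a sub-cluster of 148 cells, 131 of them from control 1, set aside for markers of other classes. MC-like cells held 15 IL17RC UMIs in control and 93 in asthma libraries. Within classes the log2 fold changes were 0.49 (SE 0.39) in epithelial-like, 0.30 (SE 0.37) in stromal-like and 0.13 (SE 0.34) in macrophage-like cells, with edgeR adjusted p of 0.743, 0.707 and 0.969. MC-like levels were 16.9, 9.90 and 8.58 CPM in the control and 15.2, 21.8 and 14.1 CPM in the asthma libraries, which overlapped (exact permutation p = 0.3). How much of the difference over all cells came with the class shares was not tested.

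IL17RA stood at 2.37, 3.13 and 2.80 CPM over all cells of control and 3.88, 3.34 and 4.69 CPM of asthma lungs. These values did not overlap, but the TMM-normalized values did, and the log2 fold change was 0.37 (SE 0.23, edgeR adjusted p = 0.559). In granulocyte-like cells, where IL17RA was highest, the levels were 30.5, 24.2 and 31.9 CPM in the control and 48.2, 38.9 and 78.1 CPM in the asthma libraries. Every asthma library was above every control library, where 4.43% of the genes fitted in these cells showed the same direction on the TMM scale. The means were 28.9 ± 4.11 and 55.1 ± 20.5 CPM (exact permutation p = 0.1, the smallest possible), resting on 18 control and 52 asthma UMIs. The difference of 26.2 CPM became 14.7 without asthma 11, and 8.82 (exact permutation p = 0.8) when cells with at least 200 genes were kept. Several granulocyte-like sub-clusters were mostly of 1 library (323 of 360 cells from asthma 10, 322 of 345 from control 2, 178 of 266 from asthma 8 and 123 of 152 from control 1), and their part in the difference was not tested. In monocyte-like cells the levels were 5.26, 5.29 and 5.26 CPM in the control and 7.22, 7.65 and 6.50 CPM in the asthma libraries, again without overlap (6.17% of genes in this class), with a log2 fold change of 0.32 (SE 0.34, edgeR adjusted p = 0.926). In macrophage-like cells the log2 fold change was 0.36 (SE 0.29, edgeR adjusted p = 0.907) and the groups overlapped.

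The CCL20 levels of the groups overlapped in most sets of cells. Over all cells it stood at 5.30, 2.81 and 8.05 CPM in the control and 4.54, 8.50 and 2.76 CPM in the asthma libraries (log2 fold change -0.14, SE 0.52, edgeR adjusted p = 0.941). In monocyte-like cells the levels were 30.4, 6.34 and 31.6 CPM in the control and 5.42, 24.2 and 1.70 CPM in the asthma libraries, with overlap (log2 fold change -1.76, SE 0.95, edgeR adjusted p = 0.769). In epithelial-like cells asthma 8 was highest at 47.6 CPM, where 4 cells held all 63 UMIs, and asthma 11 had 1 UMI. Basal-like cells, the airway progenitors, held 39 CCL20 UMIs in control and 1 in asthma libraries. Their levels were 23.1 and 41.3 CPM in control 1 and 3, and 0, 0 and 7.70 CPM in asthma 8, 10 and 11, with control 2 left out for having 3 such cells. Without control 2 the groups did not overlap (10.5% of genes fitted there lay the same way), and the exact permutation p was 0.1. Of the 39 control UMIs 37 came from control 3. Control 2 stood at 0 CPM over all its epithelial-like cells, so its 3 basal-like cells held no CCL20, like asthma 8 and 10. In basal-like cells 14 of 15 immediate-early and stress genes tested also had a log2 fold change below 0 (median -0.89). Their part in the CCL20 difference was not tested. Without the low-count filter edgeR called the CCL20 difference (log2 fold change -3.97, adjusted p = 0.0344), where 32 genes were called up and 25 down of 13630.

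**Figure D5:**
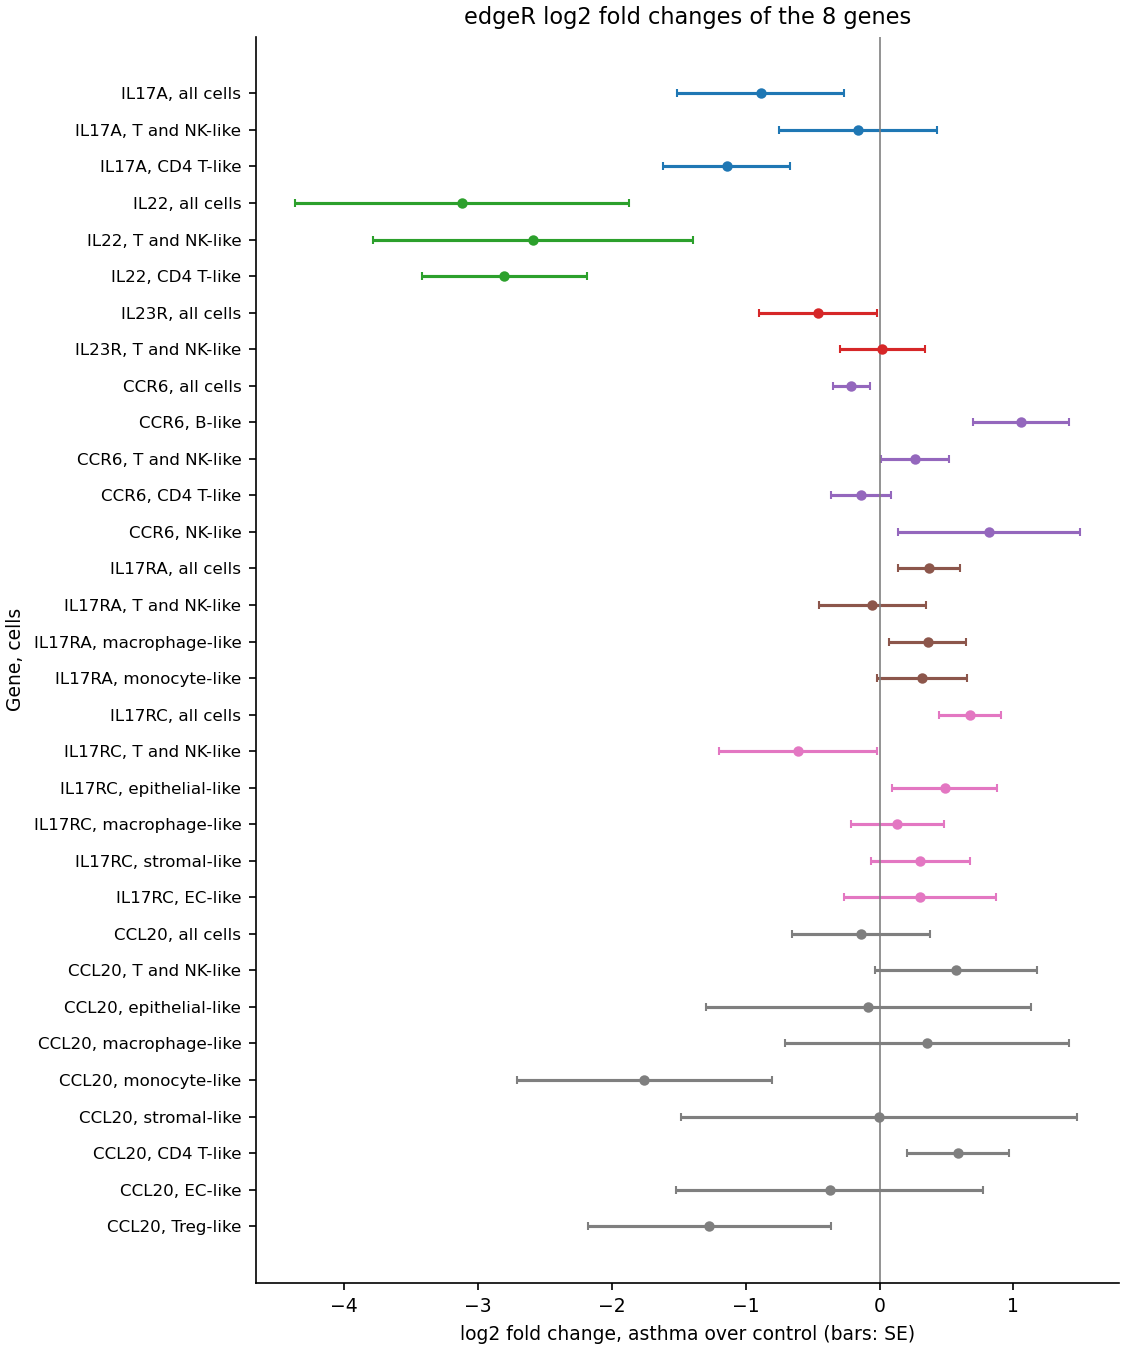
Log2 fold change of asthma over control (horizontal axis, bars are the SE from edgeR) for each gene over all cells and in each class or named subtype where it passed the low-count filter (rows, coloured by gene). None of the points passed the adjusted threshold, and IL22 lies farthest to the left in all 3 sets shown.

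The wider pathway was read from lists of related genes, given here by counts. Over all cells no gene was called among 7 tested of 11 other ligands, 7 of 10 receptors, 13 of 15 type 17 lymphocyte genes, 16 of 16 signalling genes, 17 of 27 genes known to answer IL-17 and 18 of 21 immediate-early and stress genes. Median log2 fold changes were -0.24, 0.43, 0.05, -0.10, -0.30 and -0.37 in that order, against -0.02 over all genes tested. These sums move with cell shares, and the medians differed within the classes and subtypes given here, where the median of all genes lay between -0.02 and 0.03. In T and NK-like cells the median was 0.41 for type 17 genes (10 of 12 above 0). It was 0.34 in T sub-cluster 2 (8 of 9 above 0), 0.66 in T sub-cluster 9 (3 tested) and 0.30 in Treg-like cells (2 tested). In NK-like cells it was 0.14, and in T sub-clusters 3, 4, 7 and 8 it was 0.11, 0.19, 0.08 and 0.11. It was -0.03 in CD4 T-like cells (5 of 10 above 0), -0.21 in proliferating cells and -0.28 in T sub-cluster 5. Outside this class it was 2.61 in dendritic-like (4 tested), 0.56 in monocyte-like, 0.49 in macrophage-like (6 of 7 above 0) and 0.38 in epithelial-like cells. It was 0.22 in stromal-like, 0.20 in B-like, 0.15 in MC-like and 0.04 in granulocyte-like cells. A median above 0 was thus not particular to lymphocytes. For receptors it was 0.04 in all T and NK-like cells and -0.22 in CD4 T-like cells (5 of 5 below 0). In stromal-like cells it was -0.01, with 0.59 in Fib-like (3 tested) and -0.46 in EC-like cells (2 of 3 below 0). It was 0.21 in epithelial-like (3 of 4 above 0), 0.42 in club-like and 0.20 in MC-like cells. In dendritic-like and macrophage-like cells it was 0.49 and -0.07. For the genes known to answer IL-17 it was -0.62 in epithelial-like (8 of 10 below 0) and -1.50 in monocyte-like cells (6 of 7 below 0). It was -0.62 in macrophage-like, 0.04 in T and NK-like and 0.31 in stromal-like cells. Within the stromal-like class, Fib-like cells had 2 of 2 such genes above 0, and EC-like cells had 2 above and 2 below 0. In epithelial-like cells all 17 immediate-early and stress genes tested also lay below 0 (median -0.86). Basal-like cells were 104 of 310 control and 48 of 601 asthma epithelial-like cells, and alveolar type 1-like cells 24 and 244. Within epithelial subtypes the median of the genes known to answer IL-17 was -1.95 in basal-like cells (3 tested). It was -0.72 in AT2-like (3 of 5 below 0) and -0.06 in club-like cells (3 above and 4 below 0). The part of this make-up, and of that of the monocyte-like cells, was not tested. Among type 17 genes over all cells, ZBTB16, which encodes the factor PLZF, stood at 1.51 (SE 0.53) and CXCR6 at 0.85 (SE 0.37). The edgeR adjusted p was 0.316 for ZBTB16 and 0.402 for CXCR6. List genes named here over all cells were picked from those whose groups did not overlap, so that gap is no separate result. Of all genes tested there, 10.1% had every asthma library above every control library and 9.13% had every asthma library below. CXCR6 stood at 1.28 (SE 0.28, edgeR adjusted p = 0.376) in T and NK-like and 0.85 (SE 0.28) in CD4 T-like cells. ZBTB16 stood at 1.17 (SE 0.35, edgeR adjusted p = 0.133) in stromal-like, 0.92 in epithelial-like and 0.77 in T and NK-like cells. Again over all cells, IL1R1, the receptor for IL-1, stood at 0.75 (SE 0.19, edgeR adjusted p = 0.229), and IL6ST at 0.43. Within classes and subtypes IL1R1 stood at -0.16 in stromal-like, -0.19 in epithelial-like and -1.23 (SE 0.31, edgeR adjusted p = 0.0539) in EC-like cells. It stood at 0.74 (SE 0.35, edgeR adjusted p = 0.524) in Fib-like, 0.62 (SE 0.51) in monocyte-like and 0.13 (SE 0.39) in basal-like cells. IL6ST stood at -0.21 in stromal-like, 0.09 in epithelial-like, -0.46 in EC-like and 0.09 in Fib-like cells. Over all cells TRAF3IP2, the adaptor Act1 of the IL-17 receptor, stood at 0.19 (SE 0.19), ICAM1 at 0.57 (SE 0.15) and NOS2 at 0.78 (SE 0.40). Within classes TRAF3IP2 stood at -0.66 in macrophage-like, -0.23 in stromal-like, -0.14 in epithelial-like and 0.02 in T and NK-like cells. ICAM1 ran from -0.48 in B-like to 0.96 in stromal-like cells, and among named subtypes from -0.76 in AT2-like to 1.70 in Fib-like cells. The immediate-early genes NR4A2 and IER2 stood at -0.51 and -0.51 over all cells. There the summed level of that list was 10416, 8515 and 10868 CPM in the control and 7895, 10999 and 5869 CPM in the asthma libraries, lowest in asthma 11. In CD4 T-like cells the summed level was 12741, 10658 and 14428 CPM in the control and 10824, 12668 and 7057 CPM in the asthma libraries. There 16 of 17 genes of the list lay below 0 (median -0.32, against 0.00 over all genes), and its part in the IL22 and IL17A differences there was not tested.

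Within classes no list gene was called, and within subtypes 5 were, which are named here because they were called, after their values were seen. CXCL8, the neutrophil chemokine that IL-17 is known to induce, was 2075 and 1867 CPM in basal-like cells of control 1 and 3 and 410, 278 and 197 CPM in asthma 8, 10 and 11. It fell by 2.75 on the log2 scale (SE 0.29, edgeR adjusted p = 0.00145, where 0.043% of genes were called), and the adjusted p was 0.127 without asthma 10. In the same cells 14 of 15 immediate-early and stress genes tested had a log2 fold change below 0, with a median of -0.89 against 0.01 over all genes. Their summed level was 24304 and 20847 CPM in control 1 and 3 and 11001, 13506 and 8344 CPM in asthma 8, 10 and 11, and its part in the CXCL8 difference was not tested. Control 1 had 10 basal-like cells and control 3 had 91. Control 2, left out of the fit with 3 cells, stood at 7842 CPM for this list and at 192 CPM for the genes known to answer IL-17, below all 3 asthma libraries in both (347 to 818 CPM for the latter). In EC-like cells 3 of the 39 list genes tested were called, a share of 7.69% against 4.96% of all genes tested there. PTGS2, which encodes the prostaglandin synthase COX-2, was 143, 91.3 and 149 CPM in EC-like cells of control and 10.3, 11.6 and 9.68 CPM of asthma lungs. It fell by 3.64 (SE 0.27, edgeR adjusted p = 0.00091), and the call held with each library left out. NR4A1, an immediate-early gene, also fell in EC-like cells (-2.03, SE 0.44, edgeR adjusted p = 0.0335), and ZBTB16 rose there (1.89, SE 0.32, adjusted p = 0.0202), and each call was lost in several alternatives. The adjusted p reached 0.0985 for NR4A1 without asthma 11 and 0.0775 for ZBTB16 without asthma 10, and it was 0.303 and 0.309 with the finer clustering. The EC-like cells of the groups came from different sub-clusters. The pair led by ACE and EDNRB and by SEMA3G and TMEM88 held 34 of 168 control and 643 of 825 asthma cells, and the pair with ACKR1 and SELP and with GASK1B and DKK2 among the leading genes held 134 and 182. In these cells 14 of 16 immediate-early and stress genes tested had a log2 fold change below 0 (median -0.73 against 0.03 over all genes). The part of either in the 3 differences was not tested. NFKBIZ, which encodes the IL-17-inducible regulator IκBζ, was 53.1, 49.9 and 60.0 CPM in Fib-like cells of control and 161, 172 and 160.1 CPM of asthma lungs. It rose by 1.57 (SE 0.21, edgeR adjusted p = 0.0154, where 0.394% of genes were called), and the adjusted p was 0.0618 and 0.116 without control 1 and control 3. Here too the make-up differed, since the Fib-like sub-cluster led by CCL11 held 81 control and 332 asthma cells and the one led by RBP4 held 207 and 41. In these cells 11 of 14 immediate-early and stress genes tested lay above 0 (median 0.26 against 0.01 over all genes), with NR4A2 at 1.68 (SE 0.54, edgeR adjusted p = 0.277). The part of either in the NFKBIZ difference was not tested.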

How the data were processed

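Lungs of 6 monkeys gave 1 single-cell library each (10x 3′ chemistry). The deposited files hold raw UMI counts per gene and barcode, which the authors made with Cell Ranger against macFas6. The matrix header names version 4.0.0, the submitters' processing notes name 2.1.1, and the study's methods name another version. Following the limits in the study's methods, cells were kept between 500 and 5000 genes, from 500 UMIs upwards, and up to a mitochondrial share of 25%. Cells were clustered with scanpy 1.11.5 (2000 variable genes, 10 principal components, resolution 0.8), leaving 108 axis genes out, and doublets were kept unless in mixed sub-clusters. Counts were summed per library and cell type (at least 10 cells) and tested with edgeR 4.0.16 (TMM, quasi-likelihood, filter on low counts), adjusted over all genes tested. Members under that filter were compared as CPM by a two-sided exact permutation test, with 32 such tests, none of which can go below 0.1. Classes were ordered by a two-sided exact sign-flip test over the 6 libraries.

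The 8 genes, the lists and the rules were chosen with earlier results of these data known. Named list genes were those called over all cells or in a class (none was), 5 called in subtypes and named after their values were seen, and the up to 3 per list with the largest change among those whose groups did not overlap over all cells. Library totals ran from 29014556 to 41489879 UMIs, and the limit for a count of 0 is 3 counts, for counting error only. Each library is 1 animal. Alternatives were DESeq2 1.42.0, no low-count filter, other cell limits, doublet removal, resolution 1.6, no thinning, and each library left out. The share of cells with a UMI and all barcodes were added after seeing the data. The scripts were tested on simulated data. One gene of the type 17 list is not reported here by name.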

Additional observations from a re-analysis of the deposited data

Results flagged for a closer look

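The 2008 cells set aside, 1496 in sub-clusters with markers of another class and 512 in sub-clusters with too few of their own, entered no class and are counted only in the sums over all cells. The mean IL17RA level of the asthma libraries there was above that of the control libraries, in cells outside the comparisons by class. The levels were 2.65, 3.01 and 2.0 CPM in control 1, 2 and 3 and 3.50, 3.89 and 3.83 CPM in asthma 8, 10 and 11, a mean of 3.74 CPM in the asthma group. In these cells 8.39% of 10845 genes with at least 50 UMIs had every asthma library above every control library, IL17RA among them, and each IL17RA value rests on 8 to 12 UMIs. The difference was not tested.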

How the results depend on the processing

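No member was called over all cells or in a class under any alternative run. Without the low-count filter 4 calls appeared in named subtypes (IL22 and IL17A in CD4 T-like, IL22 in proliferating and CCL20 in basal-like cells). CCL20 was called also in the unnamed T sub-cluster 2 (log2 fold change 2.74, edgeR adjusted p = 0.00044), and 0 calls appeared under the other alternatives. Calls rose among all genes too without that filter. Genes called up and down were 41 and 68 of 14698 in CD4 T-like and 13 and 10 of 14050 in proliferating cells. They were 32 and 25 of 13630 in basal-like cells and 42 and 44 of 14370 in T sub-cluster 2. The direction of some uncalled values turned, and the cause was not tested. With at least 200 genes and no maximum the log2 fold change of CCL20 was 0.020 over all cells, -0.0073 in T and NK-like, 0.14 in stromal-like and 2.28 in epithelial-like cells, and that of IL23R in T and NK-like cells was -0.076. It was 0.27 for CCL20 in stromal-like cells with at most 10% mitochondrial UMIs, 0.23 in epithelial-like cells with DESeq2, and -0.0038 for IL23R in T and NK-like cells with doublets removed.

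Leaving out each library in turn gave log2 fold changes of CCL20 from -0.72 to 0.19 over all cells, -1.46 to 0.87 in macrophage-like, -0.83 to 3.22 in stromal-like and -3.15 to 0.85 in epithelial-like cells. In T and NK-like cells they ran from -0.12 to 0.18 for IL23R, -0.61 to 0.35 for IL17A and -0.35 to 0.24 for IL17RA, and in macrophage-like cells from -0.16 to 0.29 for IL17RC. Differences in mean CPM of IL17F ran from -0.251 to 0.408 over all cells, -0.564 to 2.43 in T and NK-like and -1.87 to 17.8 in CD4 T-like cells, negative only without asthma 10, and those of IL23R in CD4 T-like cells from -6.17 to 4.47.

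As a mean over cells of UMIs per 10000 UMIs, B-like minus T and NK-like CCR6 was -0.0397, MC-like minus epithelial-like IL17RC -0.00363 and granulocyte-like minus monocyte-like CCL20 -0.0116. With at most 10% mitochondrial UMIs the first was -18.1 CPM and the last -0.843 CPM. Without thinning, the mean shares over the 6 libraries of cells with a UMI were 0.446% for IL17A, 0.352% for IL17F and 1.17% for IL23R in T and NK-like, 8.42% for CCR6 in B-like and 13.4% for IL17RC in MC-like cells. The 0.384% for IL17F and 15.9% for IL17RC given earlier pool the cells of all libraries. In the alternatives added after seeing the data, the asthma minus control difference of IL17F was -0.088 percentage points of cells and -0.0016 UMIs per 1000000 over all barcodes.

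No paired analysis was possible because the groups share no replicate number. IL17A, IL17F and IL22 were seen in 47, 70 and 32 cells, and 94.7% of the cells with IL17RA and 93.4% of those with IL17RC had 1 UMI of it.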

Other observations

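Barcodes outside the cell limits also held UMIs of the 8 genes. IL22 had 38, 1 and 37 such UMIs in control 1, 2 and 3 and 0 in each of asthma 8, 10 and 11, so that over all barcodes the counts were 178, 76 and 60 against 1, 1 and 26. The exact permutation test over all barcodes gave p = 0.1, the smallest possible. CCL20 had 11, 9 and 94 such UMIs in the control libraries and 190, 35 and 6 in asthma 8, 10 and 11. The highest of these, in asthma 8, exceeded the 137 CCL20 UMIs in the cells kept from that library.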
